A study of Mus musculus with 6 samples.

Results

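Solute carriers are the membrane proteins that move amino acids, sugars, metals, ions, vitamins and nucleosides across the membranes of cells and organelles, and their genes are named Slc, then the number of the family, a, and the number of the member. The genes described are the solute carriers of the authors' unfiltered table whose mean over the 6 libraries was 1 FPKM or more (sequenced fragments scaled to transcript length and to library size), without the mitochondrial Slc25 family and without 14 carriers left out by name. The rule matched 126 of the 212 genes named in this way, among 13960 rows of the table. It takes no account of the later letters of a family, so carriers such as Slc35b or Slc35f are not among them. The members were thus chosen by their measured mean FPKM, and levels near the limit are given only to describe it: Slc1a4 (0.985 FPKM) and Slc7a4 (0.959 FPKM) lay just under it, and Slc24a5 (1.02 FPKM) and Slc13a4 (1.07 FPKM) just over it. Of the 126 members, 9 had a mean under 1 FPKM at 7 days and 0 had one at 3 days. Some of the weakest members thus passed through their 3-day level alone. Counts among weak members are not evidence of a direction, and neither are the calls of these 9 genes.

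The libraries came from mice of 2 times after a contusion of the spinal cord at T8, with 3 libraries at 7 days and 3 at 3 days. All were chimeras labelled LysMCre:Rplfl/fl > CD45.1, with the strain given as CD45.1, and the tissue was the injury site. In the RiboTag method, Cre tags a ribosomal protein, and ribosomes with their bound RNA are then precipitated through the tag. LysM-Cre is active in macrophages, monocytes and neutrophils, so the tag is not restricted to macrophages, and cells that the host keeps, such as its microglia, carry no tag. Nothing in the labels ties a library to 1 animal, and p-values here refer to the spread among these 6 libraries, which may be technical in part. Uninjured cord and total RNA of the cord were not analysed here.

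In macrophages, carriers of the lysosomal membrane return amino acids, nucleosides, sugars, metals and sialic acid from digested material to the cytosol, and carriers of the plasma membrane take up the cell's own nutrients. The CD98 heavy chain Slc3a2 brings several amino acid exchangers of family 7 to the cell surface. Zinc enters the cytosol through family 39 and leaves it through family 30. Neurons and glia hold carriers of their own, which clear transmitters and set the chloride gradient.

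The precipitates also held RNA of other cells. The summed FPKM of 8 neuron markers was 49.8 to 64.1 in the 7-day libraries and 152 to 371 in the 3-day libraries, and 8 of the 8 were called lower at 7 days. The sums of 7 oligodendrocyte markers were 132 to 158 at 7 days and 309.7 to 623 at 3 days (7 of 7 called lower), and those of 7 astrocyte markers 106 to 132 and 205 to 585 (5 of 7 called lower). No marker of these 3 lists was at 0 in all libraries of a time, and 3-day replicate 2 had the highest sum of each. The 5 microglia markers went the other way, with 2136 to 2343 FPKM at 7 days and 681 to 858 FPKM at 3 days (4 of 5 called higher), while the 6 tested macrophage markers summed to 1254 to 1285 FPKM at 7 days and 1237 to 1414 FPKM at 3 days (2 higher, 2 lower). The summed level of 4 red cell genes was 15.9 to 22.4 FPKM at 7 days and 164 to 213 FPKM at 3 days, and that of 6 inflammatory monocyte genes 172 to 226 FPKM and 458 to 525 FPKM. In such bulk RNA fewer cells of a type and less RNA per cell cannot be told apart. The number of reads behind a value is unknown, because the deposited values are FPKM.

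Solute carriers as a whole changed about as often as other genes, and the changes ran both ways. Of the 118 members tested, 27 were higher and 23 lower at 7 days (limma with Benjamini-Hochberg adjustment, threshold 0.05), which leaves 68 without a call. That is 22.9% higher and 19.5% lower, beside 21.9% higher and 19.7% lower among the 11073 tested genes with a mean of 1 FPKM or more, and 18.8% and 20.3% among all 13042 tested genes. All 3 libraries at 7 days lay above all 3 at 3 days for 37 members (31.4%) and below them for 30 members (25.4%), against 31.2% and 25.1% of tested genes with a mean of 1 FPKM or more. The median log2 change of the members was 0.05, and that of all tested genes -0.04. Of the called members, 6 were 2-fold or more higher in mean FPKM and 17 were 2-fold or more lower. Among the 34 members at a mean of 20 FPKM or more, of which 32 were tested, 13 were called higher and 5 lower, with a median log2 change of 0.25, beside 35.7% higher and 10.1% lower among all 3796 tested genes at that level. Among the 39 members under 5 FPKM, of which 38 were tested, 1 was called higher and 12 lower, with a median of -0.32, beside 6.72% higher and 33.5% lower among all 3006 tested genes with a mean of 1 to under 5 FPKM. The split by level was thus that of tested genes in general, and nothing particular to the carriers is read from it. Without 7-day replicate 2 the count of higher members was 16, and when only genes at a mean of 5 FPKM or more were tested (80 members) the count of lower members was 11. In the authors' deposited table, a q-value of 0.05 or less was given to 48 of the tested members, 22 higher and 26 lower. Both tests called 41 members, 0 of them with opposite signs, while 9 passed only the limma test and 7 only the authors'.

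**Figure D1:**
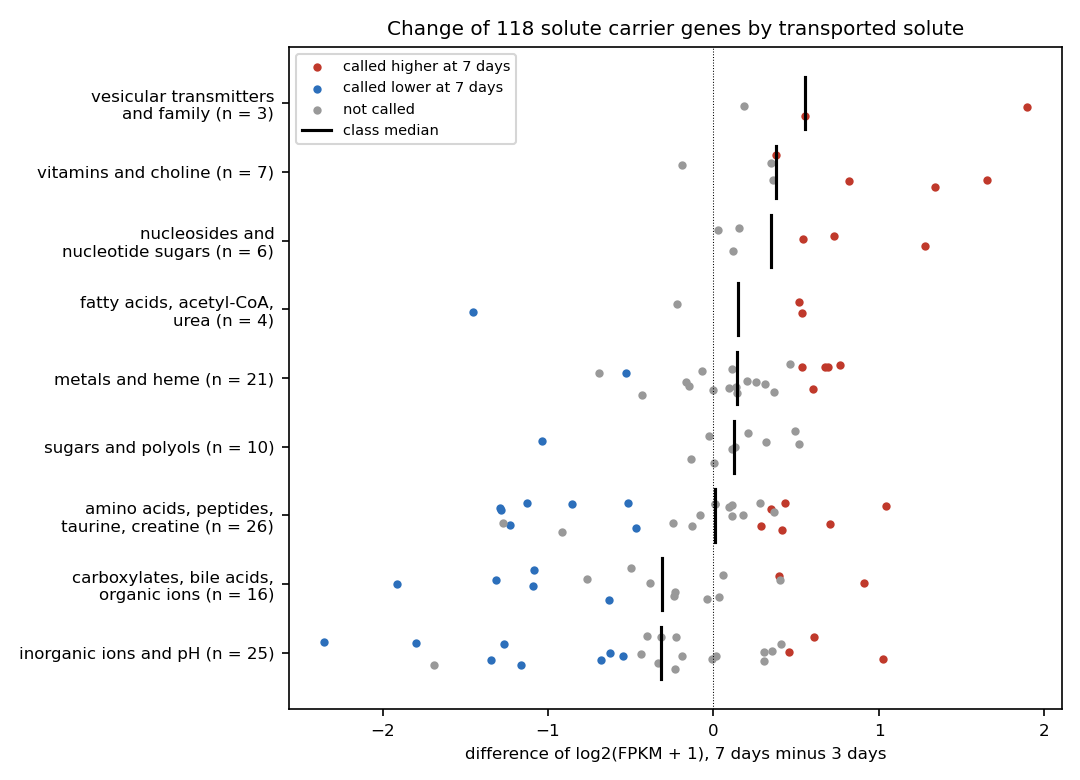
Difference of log2(FPKM + 1), 7 days minus 3 days, for the 118 tested solute carriers, 1 point a gene, by transport class (points are spread vertically for sight). The class was given by the family number, not by the solute of each gene. Red points were called higher at 7 days (27 genes), blue points lower (23), grey points not called (68), and black bars are class medians. The vitamin and nucleoside classes lie to the right, and the ion and carboxylate classes reach farthest to the left.

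Classes were given by family number alone, so a class can hold carriers of other solutes, such as Slc16a10, Slc43a3 and Slc5a7, described below. By class, the carriers of vitamins and choline held 4 higher and 0 lower genes among 7 tested, with a median log2 change of 0.38. The nucleoside and nucleotide sugar carriers were higher in 3 of 6 and lower in 0 (median 0.35). Metal and heme carriers were higher in 5 of 21 and lower in 1 (median 0.14). Carriers of amino acids, peptides, taurine and creatine were split, with 6 of 26 higher and 7 lower (median 0.01). Carriers of inorganic ions and protons had 3 of 25 higher and 8 lower (median -0.31), and those of carboxylates, bile acids and organic ions had 2 of 16 higher and 5 lower (median -0.31). Sugar and polyol carriers had 0 of 10 higher and 1 lower (median 0.12). The 4 carriers of fatty acids, acetyl-CoA or urea had 2 higher and 1 lower (median 0.15), and the 3 of the vesicular family had 2 higher and 0 lower (median 0.55), with 0 higher without 7-day replicate 2. Among tested genes with a mean of 1 FPKM or more, 21.9% were called higher and 19.7% lower, with a median of 0.06. These shares were 6.72% and 33.5% at 1 to under 5 FPKM, and 35.7% and 10.1% at 20 FPKM or more. The classes were not matched for level, and none of them was tested against other genes. The number of higher amino acid carriers was 2 to 4 with a single library left out, with 4 without 3-day replicate 2, 2 without 3-day replicate 3 or 7-day replicate 2, and 3 without each of the others. Without 7-day replicate 2 the ion class held 1 higher gene. The carboxylate class held 1 higher gene whichever library was left out, and 2 lower genes with quantile normalization. When only genes at 5 FPKM or more were tested, the lower genes numbered 4 among amino acid carriers, 5 among ion carriers and 1 among carboxylate carriers, since weak genes were then left out.

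Of the 16 increases that held under each of 13 alternative settings, the 2 largest were those of family 46, both proton-coupled carriers. The settings named beside single genes do not include the fit with the replicate number as a block, whose effect on calls is given once among the processing alternatives. Slc46a3, a carrier of the lysosomal membrane, had 23.9, 27.7 and 22.1 FPKM at 7 days, against 6.37, 6.81 and 8.20 FPKM at 3 days. Every 7-day library was thus well above every 3-day library, with means of 24.6 ± 2.83 FPKM at 7 days and 7.13 ± 0.956 FPKM at 3 days (n = 3 each, SD) and a 3.45-fold difference. The log2 change was 1.65 ± 0.14 (SE; limma adjusted p = 3.996e-04; mm10 chromosome 5, 147877440 to 147895013). Slc46a1, the proton-coupled folate transporter, which also takes up heme, had 7.39, 9.66 and 8.52 FPKM at 7 days, against 3.05, 3.20 and 2.08 FPKM at 3 days. The groups did not overlap (log2 change 1.34 ± 0.18, adjusted p = 0.00176; chromosome 11, 78465711 to 78472324). The other folate carrier, Slc19a1, had 3.15, 3.75 and 3.54 FPKM at 7 days, against 2.01, 2.49 and 3.13 FPKM at 3 days, a difference that did not pass (adjusted p = 0.141, and 0.0197 with quantile normalization). Slc44a2, a choline transporter-like protein, had 23.2, 32.4 and 33.1 FPKM at 7 days, against 19, 13.4 and 16.3 FPKM at 3 days (log2 change 0.82 ± 0.18, adjusted p = 0.0107; chromosome 9, 21320717 to 21352551). Its relative Slc44a1, a choline carrier, is listed with 60.9, 78.2 and 75.8 FPKM at 7 days, against 56, 69.9 and 65.1 FPKM at 3 days, which overlap, and was not tested because these values miss the authors' own means. Slc23a2, the sodium-coupled vitamin C carrier and the most abundant tested gene of this class, had 57.1, 62.4 and 63.2 FPKM at 7 days, against 50.7, 45.9 and 43.6 FPKM at 3 days (log2 change 0.38 ± 0.10, adjusted p = 0.0205). Slc23a2 was no longer called without 7-day replicate 2, 7-day replicate 3 or 3-day replicate 3 and with quantile normalization (adjusted p of 0.0599 to 0.368). The riboflavin carrier Slc52a2 had 4.08, 5.60 and 4.52 FPKM at 7 days, against 3.34, 3.57 and 3.40 FPKM at 3 days (adjusted p = 0.0980, and 0.0215 with quantile normalization). The thiamine carrier Slc19a2 had 2.25, 1.88 and 2.08 FPKM at 7 days, against 2.36, 2.80 and 2.35 FPKM at 3 days (adjusted p = 0.339). The groups of these 2 genes did not overlap, but the gaps were small and neither passed the test.

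**Figure D2:**
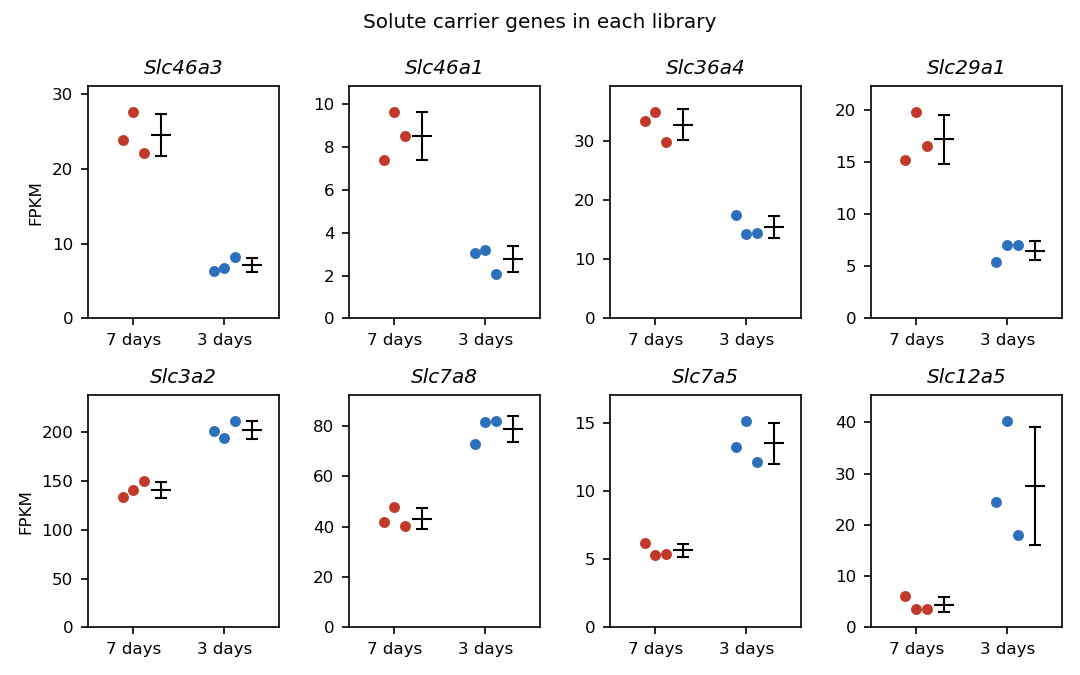
FPKM of 8 solute carriers in each library, 7 days (red) left of 3 days (blue), 3 libraries each, with the mean and SD beside them in black. Slc46a3, Slc46a1, Slc36a4 and Slc29a1 are higher in every 7-day library, and Slc3a2, Slc7a8, Slc7a5 and Slc12a5 are lower in every one.

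Slc46a3 stands on a list of 18 carriers of lysosomes and endosomes, all of them members and tested. Of these, 8 were called higher and 1 lower, 15 had a positive log2 change, and the median was 0.35, beside 0.06 for tested genes with a mean of 1 FPKM or more. Among those genes 21.9% were called higher and 19.7% lower, and at a mean of 20 FPKM or more 35.7% and 10.1%. The list was not tested against other genes. With a single library left out, 4 to 8 of the 18 carriers were called higher. The count was 4 without 7-day replicate 2 and 5 without 7-day replicate 3, 3-day replicate 1 or 3-day replicate 3. Microglia markers rose in the same libraries and their part in this was not tested.

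Slc36a4, a carrier of proline and tryptophan, had 33.3, 34.9 and 29.8 FPKM at 7 days, against 17.5, 14.2 and 14.4 FPKM at 3 days. Its level was 2.13-fold higher at 7 days and its libraries were tight (log2 change 1.04 ± 0.12, adjusted p = 0.00108; chromosome 9, 15709501 to 15743589). Slc26a11, a sulfate and chloride carrier, had 12.3, 12.9 and 15.7 FPKM at 7 days, against 7.0, 4.81 and 6.91 FPKM at 3 days. It was also clearly separated (log2 change 1.02 ± 0.17, adjusted p = 0.00407; chromosome 11, 119349404 to 119381034). The 2 peptide and histidine carriers of endolysosomes, which pass bacterial muramyl peptides to the cytosol, were both called higher. Slc15a3, the more abundant, had 73.2, 78.6 and 90.1 FPKM at 7 days, against 45.2, 44.1 and 58.4 FPKM at 3 days (log2 change 0.71 ± 0.14, adjusted p = 0.00735; chromosome 19, 10839769 to 10857918). An exon of Slc15a3 overlaps an exon of Tmem132a in GENCODE M21, and whether reads were counted by strand is not stated. Slc15a4, which also anchors Toll-like receptor signalling at the endolysosome, had 11.7, 13 and 14.7 FPKM at 7 days, against 9.18, 9.16 and 10.4 FPKM at 3 days (log2 change 0.41 ± 0.13, adjusted p = 0.0366). Its increase was smaller, and it was no longer called without 7-day replicate 2, 7-day replicate 3, 3-day replicate 1, 3-day replicate 2 or 3-day replicate 3 (adjusted p of 0.0532 to 0.119). Slc17a5, or sialin, which releases sialic acid from lysosomes, had 41.7, 44.3 and 40.4 FPKM at 7 days, against 24.1, 32.6 and 29.2 FPKM at 3 days (log2 change 0.55 ± 0.12, adjusted p = 0.0127; chromosome 9, 78536509 to 78588056). Slc17a5 was no longer called without 7-day replicate 2 and with quantile normalization (adjusted p of 0.0507 to 0.0712). Slc9a9, a sodium-proton exchanger of endosomes, had 42.5, 52.9 and 44.5 FPKM at 7 days, against 26, 37.6 and 27.9 FPKM at 3 days (log2 change 0.61 ± 0.16, adjusted p = 0.0205). The groups were separated by a narrow gap and it was no longer called without 7-day replicate 2, 7-day replicate 3, 3-day replicate 1 or 3-day replicate 3 and with quantile normalization (adjusted p of 0.0526 to 0.0876).

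Slc38a9, the arginine sensor that reports lysosomal amino acids to mTORC1, had 16.5, 16.4 and 17 FPKM at 7 days, against 13.3, 13.4 and 13.6 FPKM at 3 days. These are tight, fully separated values with a small difference (log2 change 0.29 ± 0.09, adjusted p = 0.0450), and it was no longer called without 7-day replicate 1, 7-day replicate 2, 7-day replicate 3, 3-day replicate 1, 3-day replicate 2 or 3-day replicate 3, with quantile normalization and with median centring (adjusted p of 0.0554 to 0.125). The lysosomal amino acid carriers Slc36a1 and Slc38a7 did not pass the test. Slc36a1, which is driven by protons, had 25.8, 28.7 and 23.7 FPKM at 7 days, against 26.7, 22.3 and 28.8 FPKM at 3 days (adjusted p = 0.950). Slc38a7, which exports glutamine and asparagine, had 17.7, 17.1 and 17.2 FPKM at 7 days, against 14.2, 16 and 17.9 FPKM at 3 days (adjusted p = 0.440). Both pairs of groups overlapped. Slc29a3, the nucleoside exporter of lysosomes, had 39.98, 37.4 and 36.3 FPKM at 7 days, against 33.7, 30.2 and 38.3 FPKM at 3 days (adjusted p = 0.290). Slc11a2, which moves ferrous iron out of endosomes, had 11, 14.2 and 11.4 FPKM at 7 days, against 9.48, 9.63 and 10.8 FPKM at 3 days (adjusted p = 0.154). The groups of Slc29a3 overlapped, and those of Slc11a2 were a little apart. Slc2a6, Slc2a8, Slc30a4 and Slc37a3 were also not called, with log2 changes of 0.11 ± 0.22, 0.51 ± 0.19, -0.15 ± 0.14 and -0.13 ± 0.14 (SE).

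The member of the lysosomal list that was lower was Slc48a1, which carries heme from the phagolysosome to the cytosol after red cells are digested. It had 23.4, 37.1 and 30.8 FPKM at 7 days, against 44.6, 41.2 and 45.1 FPKM at 3 days. The 7-day values were spread and the highest came close to the 3-day range (log2 change -0.53 ± 0.16, adjusted p = 0.0364; chromosome 15, 97784381 to 97792751), and it was no longer called without 7-day replicate 1, 7-day replicate 3, 3-day replicate 1, 3-day replicate 2 or 3-day replicate 3 (adjusted p of 0.0699 to 0.0983). An exon of Slc48a1 overlaps one of Hdac7, whose own level was 1.01 ± 0.201 FPKM at 7 days, against 2.87 ± 0.381 FPKM at 3 days (SD, n = 3 each). The summed red cell genes given above were lower at 7 days in the same libraries, and their part in this result was not tested.

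Among carriers of nucleosides and nucleotide sugars, the plasma membrane gene moved most. Slc29a1, the equilibrative transporter that takes up adenosine, had 15.2, 19.8 and 16.5 FPKM at 7 days, against 5.44, 7.03 and 7.05 FPKM at 3 days. That was a 2.64-fold higher mean at 7 days with no overlap (log2 change 1.28 ± 0.15, adjusted p = 0.00117; chromosome 17, 45584970 to 45599582), while the lysosomal Slc29a3, given above, did not pass the test. Slc35a5, a member of the nucleotide sugar family of the Golgi, had 24.1, 28.7 and 22.9 FPKM at 7 days, against 14.3, 14.9 and 15 FPKM at 3 days (log2 change 0.73 ± 0.11, adjusted p = 0.00320; chromosome 16, 45139322 to 45158664). Slc35a1, which brings CMP-sialic acid into the Golgi, had 13.7, 13.6 and 13.6 FPKM at 7 days, against 8.43, 9.10 and 9.73 FPKM at 3 days (log2 change 0.54 ± 0.11, adjusted p = 0.00794; chromosome 4, 34662898 to 34687359). The 7-day values of Slc35a1 hardly differed from each other. Slc35a2, the UDP-galactose carrier, had 4.84, 3.87 and 4.69 FPKM at 7 days, against 3.69, 4.23 and 4.19 FPKM at 3 days and Slc35a4 had 14, 15.1 and 14.9 FPKM at 7 days, against 12.6, 14.5 and 16.2 FPKM at 3 days. These overlapped and were not called (adjusted p of 0.542 and 0.859). The purine nucleoside carrier Slc28a2 is listed with 9.72, 11.8 and 15.9 FPKM at 7 days, against 16.1, 17.6 and 23 FPKM at 3 days. These do not overlap, but it was not tested, since the authors' own means do not follow from these values.

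Several zinc importers rose, and no zinc exporter among the members passed the test. Of the 9 tested members of family 39, 4 were called higher and 0 lower, and of the 5 of family 30, 0 were called. Among tested genes with a mean of 1 FPKM or more, 21.9% were called higher and 19.7% lower, and neither family was tested against other genes. The family 39 members summed to 211, 226 and 205 FPKM in the 7-day libraries, against 140.2, 152 and 149 FPKM in the 3-day libraries. Those of family 30 summed to 434, 459 and 274 FPKM at 7 days, against 293, 288 and 274 FPKM at 3 days. The mean sum of family 30 was thus also higher at 7 days, with 7-day replicate 3 inside the 3-day range or at its edge. Slc39a1, the plasma membrane importer and the most abundant of them, had 95.2, 104 and 90.9 FPKM at 7 days, against 52.5, 63.4 and 65.7 FPKM at 3 days (log2 change 0.67 ± 0.12, adjusted p = 0.00456; chromosome 3, 90248203 to 90253720). Slc39a11, a zinc carrier of the Golgi, had 50.4, 57 and 47.9 FPKM at 7 days, against 32.4, 31.9 and 26.2 FPKM at 3 days (log2 change 0.76 ± 0.12, adjusted p = 0.00322; chromosome 11, 113247615 to 113565780). Slc39a8, which imports zinc and manganese, had 8.76, 7.73 and 8.60 FPKM at 7 days, against 4.69, 5.22 and 5.59 FPKM at 3 days (log2 change 0.60 ± 0.13, adjusted p = 0.0101). All 3 were separated between the times. Slc39a10, an importer of the plasma membrane, had 17.2, 17.8 and 18.2 FPKM at 7 days, against 10.2, 13.6 and 12.2 FPKM at 3 days (log2 change 0.53 ± 0.13, adjusted p = 0.0148), and it was no longer called without 7-day replicate 2 or 7-day replicate 3 (adjusted p of 0.0506 to 0.0527). Slc39a3, Slc39a6, Slc39a9 and Slc39a13 had log2 changes of 0.20 ± 0.17, 0.14 ± 0.11, -0.0032 ± 0.12 and -0.16 ± 0.17 and were not called. Slc39a12, known from astrocytes, had 1.01, 0.652 and 0.521 FPKM at 7 days, against 0.992, 3.53 and 1.36 FPKM at 3 days (adjusted p = 0.118).

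Slc30a5, which loads zinc into the secretory pathway, was the most abundant of the 126 members. It had 378, 399.6 and 222 FPKM at 7 days, against 244, 235 and 222 FPKM at 3 days. One 7-day library lay at the 3-day level and the other 2 well above it (adjusted p = 0.131), and without that library, 7-day replicate 3, the adjusted p was 0.0123. Slc30a7, a zinc carrier of the Golgi, had 11.1, 10.7 and 10.2 FPKM at 7 days, against 8.06, 8.34 and 8.83 FPKM at 3 days. The groups did not overlap, but the difference did not pass (adjusted p = 0.0591; 0.0474 and 0.0494 when only genes at a mean of at least 1 or 5 FPKM were tested). Slc30a9, Slc30a6 and Slc30a4 had log2 changes of 0.14 ± 0.10, -0.07 ± 0.16 and -0.15 ± 0.14. The exporter Slc30a1, which the rule leaves out by name, had a log2 change of 0.58 ± 0.14 (SE; adjusted p = 0.016), and the zinc and iron importer Slc39a14, likewise left out, one of -1.43 ± 0.15 (adjusted p = 8.85e-04). With these 2 included, each family held a called gene, and the called genes of family 39 no longer had 1 direction. Among copper carriers, Slc31a2, of endosomes, had 27.5, 26.4 and 27.7 FPKM at 7 days, against 16.5, 14.4 and 18.7 FPKM at 3 days (log2 change 0.69 ± 0.12, adjusted p = 0.00410; chromosome 4, 62286446 to 62392020, an interval that the authors' table gives to Slc31a1 as well), whereas the importer Slc31a1 had 31.1, 34.7 and 31.7 FPKM at 7 days, against 27.9, 29.1 and 33.2 FPKM at 3 days (adjusted p = 0.402). The authors' deposited table gives Slc31a2 a q-value of 0.121. The magnesium carriers Slc41a1, Slc41a2 and Slc41a3 had log2 changes of -0.43 ± 0.17, 0.09 ± 0.12 and 0.36 ± 0.17, none of them called, and with quantile normalization Slc41a3 passed (adjusted p = 0.0163).

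The E-box CACGTG, the core of the element that TFEB and its relatives bind at lysosomal genes and that MYC and USF factors also bind, was looked for in RefSeq promoters (GRCm38.p6, 250 bases before each listed start). It reads the same on both strands. Of the 126 members, 90 had such a window, and 19 of the 90 (21.1%) held the motif in at least 1 window, as did 6.86% of all 27025 genes with a window. Among called members with a window it stood in 5 of 21 that were higher (23.8%) and in 4 of 16 that were lower (25%), about the same share in both directions. Base composition differs between promoters and was not matched. The number of windows per gene was not matched either, and the members were chosen by their level while the 27025 genes were not. The gap between 21.1% and 6.86% is thus not read as particular to carriers. The windows of Slc35a5 and Slc39a8, higher at 7 days, and of Slc12a7, lower at 7 days, are shown because they hold the motif in genes of either direction. Capitals mark CACGTG, and each is given 5′ to 3′ on its gene's strand: chr16:45158674-45158923 (minus strand) for Slc35a5, chr3:135825407-135825656 (plus strand) for Slc39a8 and chr13:73763447-73763696 (plus strand) for Slc12a7. The authors' interval for Slc39a8 starts at 135825529, inside its window, and the marked CACGTG lies past that start.
Slc35a5: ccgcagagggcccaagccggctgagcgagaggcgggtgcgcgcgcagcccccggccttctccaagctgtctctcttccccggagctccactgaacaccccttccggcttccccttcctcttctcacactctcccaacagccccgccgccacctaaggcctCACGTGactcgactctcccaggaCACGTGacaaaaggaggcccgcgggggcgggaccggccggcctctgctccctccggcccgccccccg
Slc39a8: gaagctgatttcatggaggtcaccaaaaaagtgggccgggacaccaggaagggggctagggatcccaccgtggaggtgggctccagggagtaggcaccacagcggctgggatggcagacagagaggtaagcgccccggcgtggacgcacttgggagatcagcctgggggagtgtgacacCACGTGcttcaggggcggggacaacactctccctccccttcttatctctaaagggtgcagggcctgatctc
Slc12a7: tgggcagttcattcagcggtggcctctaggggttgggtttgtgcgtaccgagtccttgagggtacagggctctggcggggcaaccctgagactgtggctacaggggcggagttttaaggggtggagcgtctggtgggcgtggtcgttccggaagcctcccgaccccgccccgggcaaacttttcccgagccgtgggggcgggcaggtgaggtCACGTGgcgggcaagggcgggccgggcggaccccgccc

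Among amino acid carriers, the CD98 heavy chain and 2 of the 4 light chains among the members were lower at 7 days. Slc3a2, the CD98 heavy chain and the second most abundant of the 126 members, had 133, 141 and 149 FPKM at 7 days, against 201, 194 and 211 FPKM at 3 days. All 7-day libraries lay below all 3-day libraries (log2 change -0.52 ± 0.10, adjusted p = 0.00628; chromosome 19, 8692046 to 8714781). Of its light chains, Slc7a5, or LAT1, the exchanger of leucine and other large neutral amino acids, had 6.17, 5.34 and 5.40 FPKM at 7 days, against 13.2, 15.1 and 12.1 FPKM at 3 days. Its mean was 2.39-fold lower at 7 days (log2 change -1.12 ± 0.13, adjusted p = 0.00114; chromosome 8, 121881145 to 121907635). Slc7a8, or LAT2, the most abundant light chain, had 41.6, 47.7 and 40.2 FPKM at 7 days, against 72.8, 81.6 and 82 FPKM at 3 days (log2 change -0.85 ± 0.10, adjusted p = 0.00133; chromosome 14, 54722173 to 54781948). The light chains of the y+L type did not pass the test: Slc7a7 had 29.1, 35.4 and 35.5 FPKM at 7 days, against 30.6, 28.8 and 34.1 FPKM at 3 days and Slc7a6 had 7.94, 8.67 and 5.57 FPKM at 7 days, against 6.65, 7.71 and 3.73 FPKM at 3 days. Both overlapped between the times (adjusted p of 0.546 and 0.401), and an exon of Slc7a7 overlaps Oxa1l. Slc7a11, the cystine exchanger of the same complex, which the rule leaves out by name, had a log2 change of -1.62 ± 0.14 (SE; adjusted p = 4.28e-04). The 3 calls of the complex held under each of the 13 alternatives, including those without 3-day replicate 2.

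**Figure D3:**
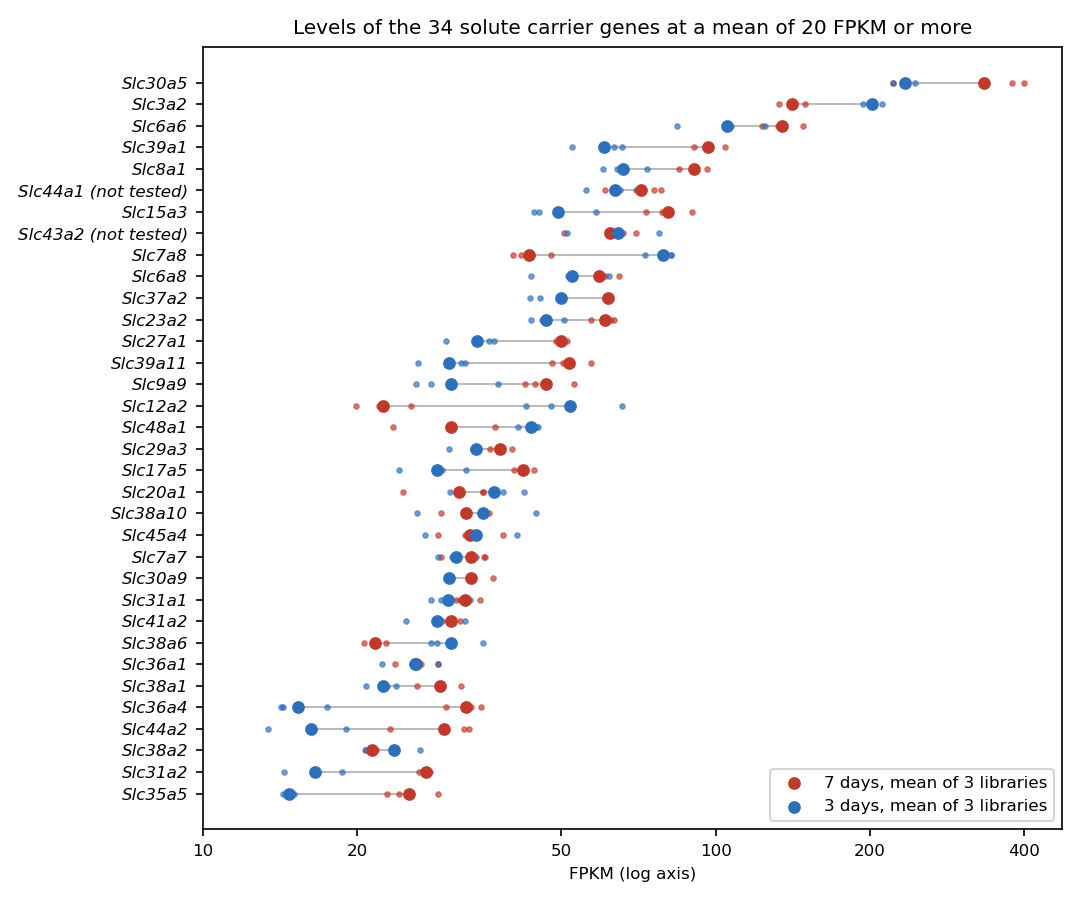
Mean FPKM of the 34 solute carriers at a mean of 20 FPKM or more, at 7 days (large red points) and 3 days (large blue points), with the libraries as small points, on a log axis. Genes run from the highest mean over 6 libraries at the top to the lowest at the bottom, and Slc30a5, Slc3a2 and Slc6a6 are the 3 above 100 FPKM.

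Most other amino acid carriers did not pass the test. Slc6a6, the taurine carrier and next in abundance after Slc3a2, had 148, 123 and 132 FPKM at 7 days, against 125, 84 and 107 FPKM at 3 days. The lowest 7-day library was below the highest 3-day library (adjusted p = 0.102), and without 3-day replicate 1 the adjusted p was 0.0382. The authors' deposited table gives it a q-value of 0.0439. The creatine carrier Slc6a8 had 51.8, 64.8 and 60.9 FPKM at 7 days, against 51.6, 43.6 and 62 FPKM at 3 days, which overlap (adjusted p = 0.352). Slc38a1, a sodium-coupled glutamine carrier, had 31.9, 28.7 and 26.2 FPKM at 7 days, against 22.8, 23.8 and 20.8 FPKM at 3 days (log2 change 0.35 ± 0.11, adjusted p = 0.0401). Slc38a1 was no longer called without 7-day replicate 1, 7-day replicate 2, 3-day replicate 1 or 3-day replicate 3 and with quantile normalization (adjusted p of 0.0628 to 0.183). Its relative Slc38a2 had 21.6, 21.7 and 20.8 FPKM at 7 days, against 23.6, 26.5 and 20.7 FPKM at 3 days (adjusted p = 0.381). Slc38a6, of the same family, was lower, with 21.6, 20.7 and 22.8 FPKM at 7 days, against 27.8, 35.2 and 28.6 FPKM at 3 days (log2 change -0.47 ± 0.12, adjusted p = 0.0179). Slc38a6 was no longer called without 7-day replicate 1 or 7-day replicate 2 (adjusted p of 0.0556 to 0.0648). Within this family Slc38a1 was thus higher and Slc38a6 lower, both with groups apart, while the groups of Slc38a2 overlapped. Slc43a3, which carries purine bases, had 7.80, 8.99 and 9.57 FPKM at 7 days, against 5.83, 6.98 and 5.95 FPKM at 3 days (log2 change 0.43 ± 0.14, adjusted p = 0.0400). Slc43a3 was no longer called without 7-day replicate 1, 7-day replicate 2, 7-day replicate 3, 3-day replicate 1 or 3-day replicate 3 (adjusted p of 0.0543 to 0.124). The libraries of Slc43a3 lay close together, with those at 7 days just above those at 3 days. The branched-chain amino acid carrier Slc43a2 is listed with 50.5, 69.997 and 65.9 FPKM at 7 days, against 77.4, 51.4 and 65 FPKM at 3 days, which overlap, and was not tested because the values miss the authors' means. Slc1a5, a glutamine exchanger, had 2.97, 4.0 and 3.09 FPKM at 7 days, against 3.99, 2.96 and 3.06 FPKM at 3 days, which overlap (adjusted p = 0.979). The arginine carrier Slc7a1 had 5.54, 4.74 and 5.06 FPKM at 7 days, against 6.85, 6.55 and 5.41 FPKM at 3 days (adjusted p = 0.197). The remaining members, Slc36a2 and Slc38a10, had log2 changes of 0.11 ± 0.18 and -0.08 ± 0.19.

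No carrier of sugars passed the test. Slc37a2, a sugar phosphate exchanger of the endoplasmic reticulum, was the most abundant, with 62.1, 60.8 and 62.2 FPKM at 7 days, against 43.4, 45.3 and 60.8 FPKM at 3 days. The 7-day values were tight and 1 of the 3-day values stood beside them (adjusted p = 0.1003, and 0.0161 without 3-day replicate 3). The glucose carrier Slc2a3 had 2.87, 2.45 and 3.13 FPKM at 7 days, against 2.49, 3.89 and 2.22 FPKM at 3 days, which overlap. The urate carrier Slc2a9 had a log2 change of 0.13 ± 0.22, and the glucose carrier Slc2a6 one of 0.11 ± 0.22 (SE). Slc2a8, a glucose carrier kept inside cells, had 3.45, 4.94 and 4.15 FPKM at 7 days, against 2.15, 3.28 and 2.47 FPKM at 3 days. Its groups did not overlap but it did not pass (adjusted p = 0.0632). It passed with quantile normalization, with median centring and without 3-day replicate 2 (adjusted p of 0.00847, 0.0488 and 0.0425). Slc50a1, a sugar carrier of the Golgi, had 12.5, 17.4 and 13.6 FPKM at 7 days, against 6.96, 12.8 and 10.8 FPKM at 3 days (adjusted p = 0.114), with a q-value of 0.0431 in the authors' deposited table. Slc37a3, Slc37a4 and Slc45a4 had log2 changes of -0.13 ± 0.14, 0.21 ± 0.17 and -0.03 ± 0.17. Slc37a1 is listed with 3.54, 2.40 and 0.341 FPKM at 7 days, against 1.21, 2.09 and 0.598 FPKM at 3 days and was not tested. Slc5a7, filed in this class by its family but a choline carrier of cholinergic neurons, is given with the neural carriers.

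Carriers of monocarboxylates, fatty acids and acetyl-CoA held a few clear increases. Slc16a7, or MCT2, a carrier with high affinity for pyruvate, had 20.8, 22.8 and 20.2 FPKM at 7 days, against 9.96, 11.7 and 10.9 FPKM at 3 days. The mean was 1.96-fold higher at 7 days (log2 change 0.91 ± 0.11, adjusted p = 0.00125; chromosome 10, 125219253 to 125389548). Slc16a1, or MCT1, had 11.1, 13.5 and 12.1 FPKM at 7 days, against 13.6, 17.5 and 13 FPKM at 3 days, which overlap (adjusted p = 0.209). Slc16a3, or MCT4, the lactate exporter that the rule leaves out by name, had a log2 change of -0.81 ± 0.11 (SE; adjusted p = 0.00192). Basigin (Bsg), the partner that takes MCT1 and MCT4 to the membrane, averaged 254 ± 18.9 FPKM at 7 days, against 191 ± 17.9 FPKM at 3 days (SD, n = 3 each; adjusted p = 0.0268). Embigin (Emb), the partner of MCT2, averaged 32.3 ± 0.900 FPKM at 7 days, against 41.1 ± 4.91 FPKM at 3 days (adjusted p = 0.0458). The 2 partners thus moved in opposite directions, both by less than the carrier Slc16a7. Slc16a10, which carries aromatic amino acids, had 20.8, 19.3 and 21.4 FPKM at 7 days, against 16.6, 12.8 and 16.9 FPKM at 3 days (log2 change 0.39 ± 0.13, adjusted p = 0.0465). Slc16a10 was no longer called without 7-day replicate 1, 7-day replicate 2, 7-day replicate 3, 3-day replicate 1, 3-day replicate 2 or 3-day replicate 3, with quantile normalization and with median centring (adjusted p of 0.0514 to 0.130). Slc27a1, a fatty acid transport protein, had 49.9, 51.2 and 48.8 FPKM at 7 days, against 36.1, 29.9 and 37 FPKM at 3 days (log2 change 0.53 ± 0.11, adjusted p = 0.00807; chromosome 8, 71569281 to 71588205), whereas Slc27a4 had 5.24, 4.93 and 6.15 FPKM at 7 days, against 6.91, 6.04 and 6.51 FPKM at 3 days (adjusted p = 0.229). Slc33a1, which takes acetyl-CoA into the endoplasmic reticulum, had 21.4, 24.5 and 22.6 FPKM at 7 days, against 14.9, 15.7 and 16.4 FPKM at 3 days (log2 change 0.52 ± 0.10, adjusted p = 0.00746; chromosome 3, 63941817 to 63963729). Both called genes kept all 3 libraries at 7 days above all 3 at 3 days. The carnitine carrier Slc22a5 and the ergothioneine carrier Slc22a4 had log2 changes of 0.03 ± 0.17 and -0.50 ± 0.18 and were not called, though Slc22a4 passed with median centring and without 3-day replicate 1 (adjusted p of 0.0483 and 0.0412). Neither were Slc10a3, Slc16a6, Slc16a9, Slc16a13 and Slc22a15, with log2 changes of 0.06 ± 0.15, -0.23 ± 0.12, -0.38 ± 0.20, 0.40 ± 0.16 and -0.04 ± 0.16, and Slc10a7, listed with 17.2, 15.8 and 21.2 FPKM at 7 days, against 14.3, 21.8 and 17.6 FPKM at 3 days, was not tested.

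Ion and proton carriers moved in both directions. Slc8a1, the sodium-calcium exchanger of the plasma membrane and the most abundant of this class, had 96, 91.2 and 84.8 FPKM at 7 days, against 73.5, 60.4 and 64.1 FPKM at 3 days (log2 change 0.46 ± 0.11, adjusted p = 0.0145; chromosome 17, 81372936 to 81670235). Slc8a1 was no longer called without 7-day replicate 1 or 7-day replicate 2 and with quantile normalization (adjusted p of 0.0513 to 0.143). An exon of Slc8a1 overlaps one of Gm11096. Slc24a6, the sodium-calcium exchanger of mitochondria, had 16.2, 16.1 and 16.7 FPKM at 7 days, against 14.2, 9.91 and 14 FPKM at 3 days (adjusted p = 0.0942). The anion exchanger Slc4a2 was lower, with 5.87, 6.29 and 5.16 FPKM at 7 days, against 11.3, 9.64 and 8.67 FPKM at 3 days (log2 change -0.68 ± 0.14, adjusted p = 0.00985). Its exons overlap those of Fastk, whose own level was 3.41 ± 0.341 FPKM at 7 days, against 4.07 ± 0.727 FPKM at 3 days (SD, n = 3 each; adjusted p = 0.377). The potassium-chloride cotransporter Slc12a7 was lower, with 14.9, 12.5 and 14.2 FPKM at 7 days, against 22.3, 18.6 and 21.1 FPKM at 3 days (log2 change -0.55 ± 0.12, adjusted p = 0.0103; chromosome 13, 73799625 to 73809235). Slc4a2 and Slc12a7 had all 7-day libraries under all 3-day libraries. The authors' interval for Slc12a7 starts downstream of the promoter window shown for it. Slc9a7, the exchanger of the trans-Golgi, is listed with 18.9, 15.4 and 19 FPKM at 7 days, against 7.37, 7.55 and 7.91 FPKM at 3 days, which do not overlap, but was not tested because the authors' means (9.40 FPKM at 7 days and 5.13 FPKM at 3 days in their deposited table) do not follow from these values. The phosphate carriers Slc20a1 and Slc20a2 had log2 changes of -0.23 ± 0.18 and -0.44 ± 0.22 and were not called. Of the other members of the class, Slc4a7, Slc9a4, Slc12a4, Slc12a9, Slc24a5, Slc26a2 and Slc26a7 were not called. Their log2 changes lay between -1.69 ± 0.87 for Slc26a7 and 0.31 ± 0.14 for Slc9a4. Slc26a7, an anion carrier, had 0, 1.08 and 4.0 FPKM at 7 days, against 0.887, 15.1 and 10.5 FPKM at 3 days, which overlap, and passed without 3-day replicate 1 (adjusted p = 0.0241).

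**Figure D4:**
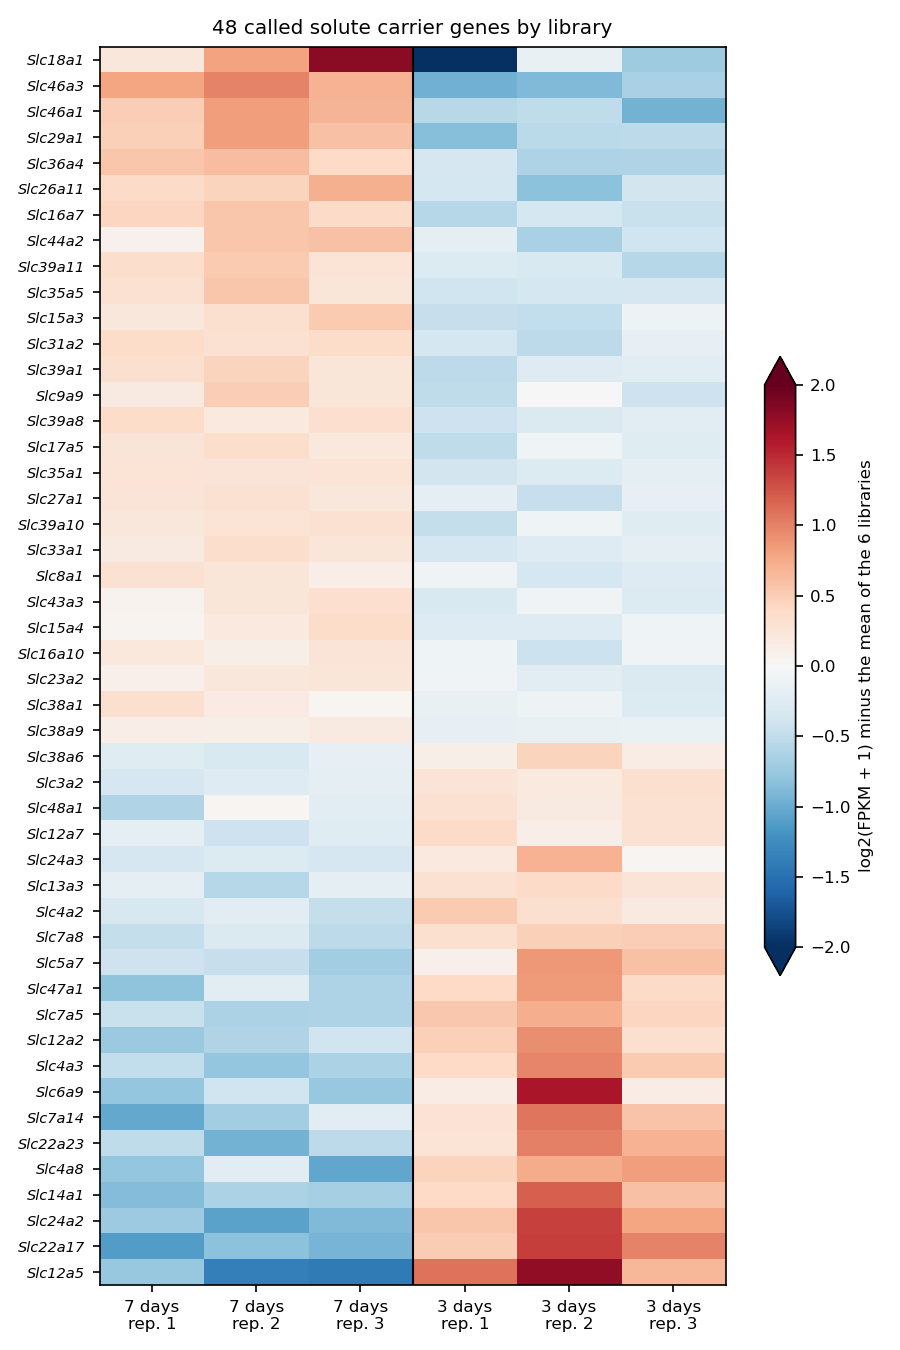
Called solute carriers, 48 of the 50 (rows, from the largest increase to the largest decrease) in the 6 libraries (columns, 7 days left of 3 days). Colour gives log2(FPKM + 1) minus the gene's mean over the 6 libraries; among the 21 lower genes drawn the reddest column is mostly 3-day replicate 2, which held the highest value of 15 of them.

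Some of the decreases were in carriers known from neurons and glia. Of a list of 39 carriers known from neurons, glia, endothelium, fibroblasts or red cells, 18 are members and 15 were tested. Of the 15, 10 were called lower and 0 higher, and their median log2 change was -1.16. The 15 summed to 45.8, 46.01 and 53.1 FPKM in the 7-day libraries, against 116, 198 and 114 FPKM in the 3-day libraries, and 14 of the 15 had their highest value in 3-day replicate 2, the library with the highest sums of neuron, oligodendrocyte and astrocyte markers. The part of those cells in these decreases was not tested. With quantile normalization 6 were called lower, and when only genes at 5 FPKM or more were tested 3 were. Of the other genes of the list, 2 that lay under the limit of 1 FPKM, Slc1a4 and Slc6a17, were also called lower (adjusted p of 0.0491 and 0.0246). Slc1a6, Slc4a1, Slc6a7, Slc7a10, Slc8a2, Slc15a2, Slc18a3, Slc22a8, Slc30a3 and Slc38a5, also under the limit, were tested and not called. Since a weak gene can pass that limit through its 3-day level alone, these counts are a description. Outside this list 13 of 103 tested members were called lower and 27 higher, beside 19.7% lower and 21.9% higher among tested genes with a mean of 1 FPKM or more.

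Slc12a5, or KCC2, the neuronal potassium-chloride cotransporter, had 6.11, 3.66 and 3.53 FPKM at 7 days, against 24.5, 40.3 and 18 FPKM at 3 days. The decrease was the largest of any called member (log2 change -2.35 ± 0.30, adjusted p = 0.00158; chromosome 2, 164960869 to 164999785). Slc24a2, a sodium, calcium and potassium exchanger of neurons, had 4.24, 3.12 and 3.71 FPKM at 7 days, against 11.7, 21.3 and 14 FPKM at 3 days (log2 change -1.80 ± 0.22, adjusted p = 0.00138; chromosome 4, 86982899 to 87230471). Slc12a2, or NKCC1, which loads chloride into glia and many other cells, had 19.9, 22 and 25.4 FPKM at 7 days, against 47.8, 65.7 and 42.7 FPKM at 3 days (log2 change -1.16 ± 0.17, adjusted p = 0.00271; chromosome 18, 57879087 to 57946838). It was the most abundant of the list among those tested. Slc6a9, the glycine carrier of glia, had 1.53, 2.26 and 1.56 FPKM at 7 days, against 3.79, 12.4 and 3.76 FPKM at 3 days (log2 change -1.28 ± 0.40, adjusted p = 0.0383). A single library, 3-day replicate 2, was far above the others, and Slc6a9 was no longer called without 7-day replicate 1, 7-day replicate 2 or 7-day replicate 3 and with quantile normalization (adjusted p of 0.0745 to 0.111). Exons of Slc6a9 overlap those of Ccdc24 and B4galt2. Slc7a14, an orphan of the amino acid family found in neurons, had 1.25, 1.83 and 2.94 FPKM at 7 days, against 4.60, 8.63 and 5.76 FPKM at 3 days (log2 change -1.29 ± 0.27, adjusted p = 0.0102). Slc14a1, the urea carrier of astrocytes and red cells, had 0.771, 1.09 and 1.04 FPKM at 7 days, against 3.27, 6.40 and 3.87 FPKM at 3 days (log2 change -1.45 ± 0.23, adjusted p = 0.00352). In all of these the 3 libraries at 7 days were below the 3 at 3 days. Slc14a1, with a mean of 0.965 FPKM at 7 days, met the limit of 1 FPKM through its 3-day level alone. Its call is therefore a description.

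**Figure D5:**
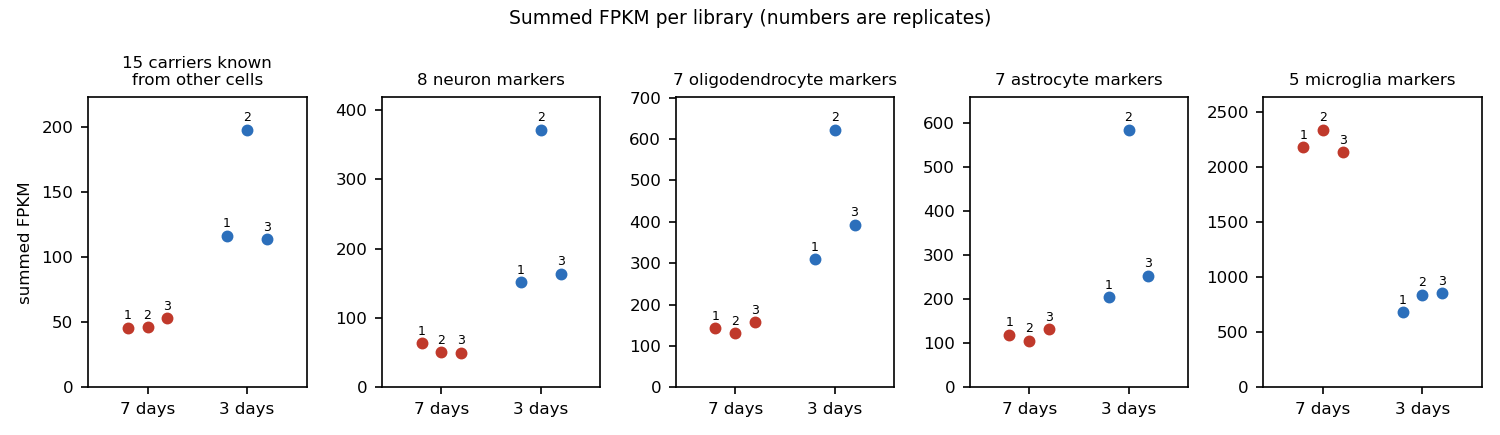
Summed FPKM per library of the 15 tested carriers known from other cells (left) and of marker lists of neurons, oligodendrocytes, astrocytes and microglia, 7 days (red) left of 3 days (blue), numbered by replicate. The carriers and the 3 neural lists are lower at 7 days with 3-day replicate 2 on top, and the microglia markers are higher at 7 days.

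The weaker carriers of the list were Slc5a7, Slc13a3 and Slc47a1. Slc5a7 and Slc47a1, with means of 0.388 and 0.746 FPKM at 7 days, met the limit of 1 FPKM through their 3-day level alone. Their calls are therefore a description. The choline carrier Slc5a7 had 0.493, 0.446 and 0.226 FPKM at 7 days, against 1.12, 2.62 and 1.98 FPKM at 3 days (log2 change -1.04 ± 0.23, adjusted p = 0.0123). Slc5a7 was no longer called with quantile normalization (adjusted p = 0.118). The dicarboxylate carrier Slc13a3 had 1.29, 0.772 and 1.30 FPKM at 7 days, against 2.23, 2.40 and 2.15 FPKM at 3 days and was no longer called without 7-day replicate 1 or 7-day replicate 2 and with quantile normalization (adjusted p of 0.0528 to 0.658). Slc47a1, a proton-coupled exporter of organic cations, had 0.439, 1.16 and 0.639 FPKM at 7 days, against 2.31, 3.50 and 2.25 FPKM at 3 days and was no longer called with quantile normalization (adjusted p = 0.0661). The 5 tested but uncalled members of the list were Slc6a13, Slc8a3, Slc24a4, Slc38a3 and Slc39a12, with log2 changes of -0.92 ± 0.50, -0.33 ± 0.23, -0.40 ± 0.39, -1.27 ± 0.47 and -0.69 ± 0.32. Slc4a10 and Slc6a15 are listed with 9.08, 9.85 and 11 FPKM at 7 days, against 24.1, 42.1 and 22.6 FPKM at 3 days and with 1.03, 2.42 and 1.75 FPKM at 7 days, against 9.75, 12 and 6.96 FPKM at 3 days. These do not overlap, but neither was tested, because the values miss the authors' means. Slc38a3, a glutamine carrier of astrocytes, passed without 3-day replicate 3 (adjusted p = 0.0380) and with a pseudocount of 0.1 FPKM (adjusted p = 0.0488).

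Some carriers outside that list fell in the same libraries. Slc22a17, the receptor of lipocalin-2, an iron-binding protein, had 1.61, 2.21 and 1.95 FPKM at 7 days, against 7.0, 13.6 and 10.2 FPKM at 3 days. Its mean was 5.35-fold lower at 7 days (log2 change -1.91 ± 0.23, adjusted p = 0.00133; chromosome 14, 54906358 to 54913048). Slc22a23, an orphan of the organic ion family, had 2.65, 1.70 and 2.59 FPKM at 7 days, against 5.24, 9.49 and 7.39 FPKM at 3 days (log2 change -1.32 ± 0.23, adjusted p = 0.00473). The anion exchanger Slc4a3 had 1.61, 1.13 and 1.36 FPKM at 7 days, against 3.82, 6.23 and 4.24 FPKM at 3 days (log2 change -1.27 ± 0.20, adjusted p = 0.00339), and the bicarbonate carrier Slc4a8 had 0.614, 1.38 and 0.337 FPKM at 7 days, against 2.72, 3.61 and 3.90 FPKM at 3 days (log2 change -1.34 ± 0.25, adjusted p = 0.00584). Both of these bicarbonate-family genes had all 7-day libraries under all 3-day libraries. Slc4a8, with a mean of 0.776 FPKM at 7 days, met the limit of 1 FPKM through its 3-day level alone. Its call and its separation are therefore a description. Slc24a3, a sodium, calcium and potassium exchanger, had 1.15, 1.24 and 1.14 FPKM at 7 days, against 2.10, 3.39 and 1.77 FPKM at 3 days (log2 change -0.62 ± 0.21, adjusted p = 0.0472). Slc24a3 was no longer called without 7-day replicate 1, 7-day replicate 2, 7-day replicate 3, 3-day replicate 1 or 3-day replicate 2, when genes at a mean of 1 FPKM or more were tested and with quantile normalization (adjusted p of 0.0561 to 0.684). Of these 5, 4 were highest in 3-day replicate 2, and Slc4a8 was highest in 3-day replicate 3. The part of neurons and glia in these decreases was not tested. The uncalled sulfate carrier Slc13a4 had 0.334, 0.575 and 0.465 FPKM at 7 days, against 1.65, 2.94 and 0.451 FPKM at 3 days (adjusted p = 0.115), and without 3-day replicate 3, the 3-day library nearest to the 7-day ones, the adjusted p was 0.0163.

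Slc18a1, or VMAT1, which loads monoamines into vesicles, was the called member with the largest increase. It had 3.66, 5.94 and 12.8 FPKM at 7 days, against 0, 2.59 and 1.43 FPKM at 3 days (log2 change 1.89 ± 0.54, adjusted p = 0.0290; chromosome 8, 69066972 to 69073583). The values were spread over a wide range at 7 days and 1 of the 3-day libraries is listed at 0, and it was no longer called without 7-day replicate 2, 7-day replicate 3, 3-day replicate 1 or 3-day replicate 3 and with a pseudocount of 0.1 FPKM (adjusted p of 0.0605 to 0.0880). The gene lies close to 2 abundant genes that were also higher, Lpl (363 ± 53.8 FPKM at 7 days, against 29.995 ± 3.96 FPKM at 3 days; chromosome 8, 68880554 to 68906996) and Atp6v1b2 (336 ± 18.9 FPKM at 7 days, against 214 ± 17.1 FPKM at 3 days; SD, n = 3 each; chromosome 8, 69088704 to 69113716). GENCODE M21 has Slc18a1 and Atp6v1b2 overlapping on opposite strands, and their part in the value was not tested. The authors' deposited table gives Slc18a1 a q-value of 0.0910. Its relative Slc17a9, which loads ATP into vesicles, had 1.49, 1.24 and 2.16 FPKM at 7 days, against 1.17, 1.33 and 1.36 FPKM at 3 days (adjusted p = 0.436).

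Transporters that carry no Slc number and partners of carriers made a list of 24 genes, of which 19 were tested. Their median log2 change was 0.30, with 9 called higher and 3 lower, beside 18.8% and 20.3% of all 13042 tested genes. Among tested genes with a mean of 20 FPKM or more these shares were 35.7% and 10.1%, and the list was not tested against other genes. The higher ones included 2 genes of lysosomal function: Ostm1, the partner of the chloride-proton exchanger of lysosomes, averaged 90.4 ± 4.27 FPKM at 7 days, against 47.6 ± 5.25 FPKM at 3 days, and Npc1, which releases cholesterol from lysosomes, 179 ± 4.22 FPKM, against 106 ± 9.62 FPKM. Unc93b1, which takes Toll-like receptors to endolysosomes, averaged 367 ± 42.6 FPKM at 7 days, against 217 ± 11.6 FPKM at 3 days. The 7 genes not called included Mfsd1, Cln3 and Spns1, likewise of lysosomes. Their log2 changes were 0.30 ± 0.15, 0.23 ± 0.13 and -0.21 ± 0.19 (SE). The mitochondrial pyruvate carrier subunits Mpc1 and Mpc2 averaged 56.4 ± 16.1 and 40.2 ± 5.22 FPKM at 7 days, against 28.7 ± 5.26 and 26.8 ± 4.89 FPKM at 3 days (SD, n = 3 each; adjusted p of 0.0132 and 0.0252). The organic anion carriers went apart: Slco2b1 was higher, with 11.6 ± 1.09 FPKM at 7 days, against 5.22 ± 1.40 FPKM at 3 days, and Slco3a1 and Slco1a4, the last known from brain endothelium, were lower, with log2 changes of -1.55 ± 0.19 and -1.51 ± 0.28 (SE; adjusted p of 0.00141 and 0.00578).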

How the data were processed

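Ribosome-bound RNA was sequenced in 6 libraries (ScriptSeq v2, per the labels). The tools named, with no role, in the submitters' processing notes are Cuffdiff 2.2.1, Cufflinks 2.2 and TopHat2 2.0.12, with build mm10. The authors deposited FPKM per gene and library, with their mean per time, their log2 fold change, a test score, p-values and q-values, per the file headers. Scaling between libraries is not given in the sources used here, and depth is unknown.

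Of 13960 rows, 918 were set aside: a test status other than OK, library values that miss the authors' mean by over 1%, a 0 beside 100 FPKM or more, or a repeated symbol. The other 13042 were fitted as log2(FPKM + 1), 7 days minus 3 days, with limma 3.58.1 in R 4.3.3 (mean-dependent prior variance, two-sided, Benjamini-Hochberg over all 13042). The threshold for a call was an adjusted p of 0.05. Differences are on this log2 scale, which understates changes of weak genes, and an exact permutation test of 3 against 3 libraries cannot go below 0.1. Simulated data for 7 days against 3 days held 13042 genes, of which 200 were changed. There limma called 62 of 100 genes changed by 1 log2 unit and 7 of 100 changed by 0.5. In the measured data limma called 5098 of 13042 genes (39.1%), and recovery with that many changed genes was not tested.

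The members and gene lists were chosen with earlier results of these data known. Genes given in full were the 12 most abundant members, up to 3 called members per class and direction with a group mean of 5 FPKM or more, and the lysosomal, CD98 and other-cell lists; the rest were added. All members enter the counts, and 4 are not reported here by name. Alternatives were other pseudocounts, filters and scalings, a replicate block, keeping every row, and leaving out each library. Coordinates are those of the authors' table, on mm10; whether starts count from 0 or 1 is not stated. Exon overlaps come from GENCODE M21.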

Additional observations from a re-analysis of the deposited data

How the results depend on the processing

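Of the 50 called members, 31 kept their call and direction under each of the 13 alternatives that tested them (16 higher, 15 lower), 19 lost it under at least 1, and 18 uncalled members were called under at least 1. In 0 cases did a called direction reverse. The count of higher members was 27 as reported, 16 to 26 with 1 library left out (16 without 7-day replicate 2) and 26 to 28 otherwise. The count of lower members was 23 as reported and 18 to 24 with 1 library left out. It was 17 with quantile normalization, and 11 when only genes at a mean of 5 FPKM or more were tested, which leaves 80 members. Keeping the rows set aside gave 28 higher and 25 lower. Quantile normalization put the median of all genes at 0.05, against -0.04 as reported. Whether replicate numbers pair the libraries is not known. Deviations of same-numbered libraries correlated at 0.115, 0.0096 and 0.0105, and those of differently numbered ones at -0.0626 to 0.0476. Not every library correlated best with its own number, but so few libraries cannot exclude a pairing. With the replicate number as a block, 27 members were higher and 24 lower: Slc13a3, Slc24a3, Slc38a9 and Slc43a3 lost their call (adjusted p of 0.0549 to 0.0739), and Slc6a6, Slc6a13, Slc26a7, Slc38a3 and Slc50a1 gained one (adjusted p of 0.0249 to 0.0489). The few libraries and the unknown depth limit what can be said of members under 5 FPKM.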
